A study of Mus musculus with 6 samples.

Results

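The genes described here encode Golgi glycosyltransferases that build the sugar chains of mucins and of cell surface proteins and lipids. They were chosen by symbol: A4gnt, A4galt and C1galt1, and every gene named Galnt, B3gnt, Gcnt, Fut, St3gal, St6gal, St6galnac, St8sia, B4galt, B3galt or B4galnt with a number. The rule found 75 of the 19938 genes measured on the array. B4galt2 shared its probe set with another gene, Fut1 had no probe set with its symbol alone, and neither was analysed here.

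RNA of the whole ileum, the far end of the small intestine, was measured in 6 individual mice with 1 Affymetrix mouse gene array each. The 3 mice labelled Gata6 KO came from a cross of Villin-CreERT2 mice to mice with both alleles of Gata6, a transcription factor gene, floxed. CreERT2 is a tamoxifen-activated Cre recombinase, here driven by the Villin promoter, an epithelial promoter of the gut. The other 3, the controls, carried Villin-CreERT2 without the floxed alleles. Mice of both groups were given tamoxifen on 5 days at an age of 6 to 8 weeks and were killed 28 days later, at 10 to 12 weeks. Because muscle, connective tissue and immune cells were not removed, fewer cells of a type and less RNA per cell cannot be told apart in these values.

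Mucin-type sugar chains begin when a GalNAc transferase attaches a first sugar to a serine or threonine. Other enzymes turn this sugar into one of several cores, lengthen the chain with galactose and GlcNAc, and close it with fucose, sialic acid or a terminal amino sugar. In the intestine such chains make up most of the mass of mucins, shield them from proteases and offer attachment sites and food to gut bacteria. Some members also act on the N-linked chains of glycoproteins or on glycolipids.

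The targeted gene did not fall in the arrays that carry the knockout label. Gata6 had log2 signals of 6.93, 6.81 and 6.86 in the KO-labelled arrays, against 6.31, 6.33 and 6.50 in controls, a log2 fold change of 0.49 (SE 0.08 and limma adjusted p = 0.0162). That call was lost without control replicate 1 (adjusted p = 0.0501) and without KO-labelled replicate 1 (0.0584), 2 (0.0573) or 3 (0.0623). The position of its probes relative to the deleted exons was not stated, and probes outside them check nothing, so every direction below is that of arrays by label. Array medians lay between 3.33 and 3.44, and a gene whose mean is not above all of them is not shown to lie above background. Control replicate 3 had the Xist and Y-linked signals of a male and the other 5 arrays those of females. Control replicate 1 stood apart from the other controls in Car1 and Cyp2c55, 2 of 7 genes listed as markers of the large intestine. The carbonic anhydrase Car1 read 12.20, 12.18 and 12.14 in KO-labelled arrays, against 10.96, 5.68 and 6.87 in controls 1, 2 and 3. The 5 other markers, Hoxb13 and Hoxd10 to Hoxd13, did not set control replicate 1 apart. Epithelial markers were present in both groups, with a mean log2 signal over 10 of them of 9.39 to 9.53 in KO-labelled arrays and 9.34 to 9.48 in controls.

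Of the 75 glycosyltransferase genes, 17 were higher and 7 lower in the KO-labelled arrays at a limma adjusted p under 0.05 over all genes, which is called passing from here on. This is 22.7% and 9.33% of them, against 4.99% higher and 3.25% lower among all 19938 genes. In either direction 24 members passed, or 32.0%, against a background of 8.24%. That background, also used below, includes dim genes. Among genes with a group mean above all array medians, 41.1% of 56 members and 12.4% of 12105 genes passed. The median log2 fold change was 0.09 over the members and -0.0043 over all genes, and 51 members did not pass. The largest increases were those of A4gnt, 6.25-fold, Fut2, 5.21-fold, and B3gnt6, 4.02-fold, and the largest decreases those of St3gal4, 3.67-fold, and Gcnt4, 2.61-fold. B3galt2 also rose, by an uncertain amount, since its control mean lay below the array medians. The groups did not overlap for 40 members, 53.3%, all 24 that passed among them, against 29.3% of all genes. With a group mean above all array medians, these shares were 64.3% of members and 39.0% of genes. For 19 members neither group mean lay above all 6 array medians, and of these only Fut9 passed. The higher count fell to 10 without KO-labelled replicate 1, 8 without replicate 2, 10 without replicate 3 and 10 without control replicate 3, and the lower count to 4 without KO-labelled replicate 2. Calls over all genes fell as well: in these fits 16% to 21.3% of members and 2.99% to 4.38% of all genes passed. Smooth muscle genes moved with the groups too: the mean log2 signal of 10 markers was 7.74 to 8.12 in KO-labelled arrays and 7.56 to 7.73 in controls. Of these markers 1 of 10 passed (8 at an unadjusted p under 0.05). With this mean as a covariate 2 members were higher and 1 lower, 4% of members, against 0.53% of all genes. All 24 kept their direction in that fit. The marker mean did not overlap between groups, so the covariate and the label are hard to tell apart there. Markers of fibroblasts and endothelium had a mean log2 signal of 7.12 to 7.31 in KO-labelled arrays and 6.82 to 7.05 in controls; 8 of 9 had a log2 fold change above 0 (median 0.35), none passed and 4 had an unadjusted p under 0.05. The part of these cells in the calls was not tested.

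**Figure D1:**
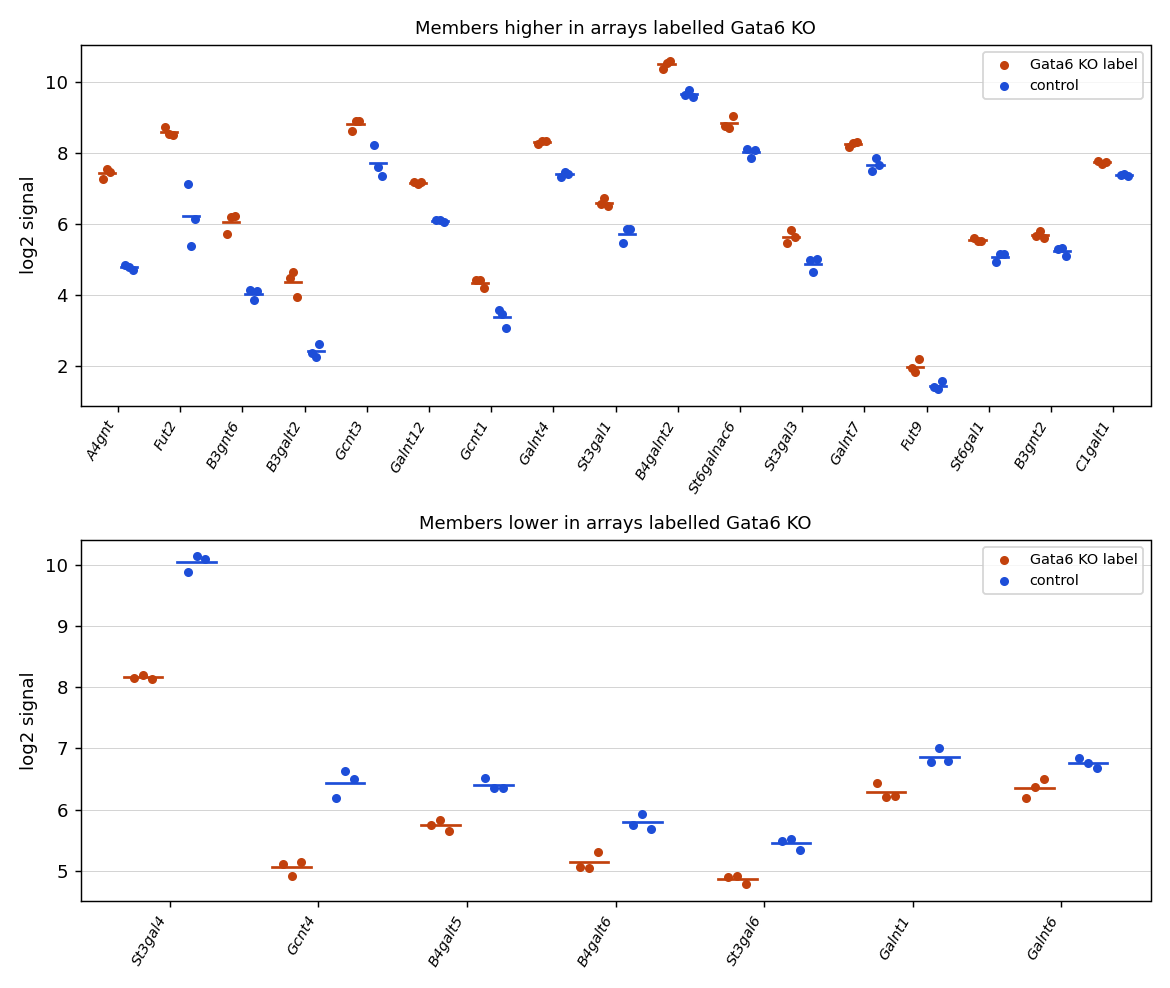
Log2 signal (vertical axes) of the 17 members that rose (top) and the 7 that fell (bottom) at a limma adjusted p under 0.05, with 1 point per array, KO-labelled arrays left and controls right for each gene, and a line at each group mean. The groups do not overlap for any of the 24 genes. A4gnt, Fut2, B3gnt6 and B3galt2 are the farthest apart at the top and St3gal4 at the bottom, and Fut2 is the most scattered control group among them.

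Sequences just before the start sites were compared for a short motif that GATA factors bind, since the mice were bred to lose one of these factors. RefSeq start sites of build GRCm38.p6 were found for 55 of the 75 members, 75 sites in all, each with 250 bases before and 50 after the start. The letters AGATAA or TGATAA, searched on both strands, occurred in 11 of these 75 windows, 14.7%, against 18.6% of the 32851 windows of all genes in the same table. Among members that passed, the motif was in 2 of 14 windows of genes that rose and in 2 of 8 windows of genes that fell. Other letters with GATA in them were not searched, so these shares cover only the 2 forms named. A match is no proof of binding. The windows of the member with the largest increase and the member with the largest decrease are shown, 5′ to 3′ on the gene's strand in lower case, with the motif in capitals. A4gnt lies on the plus strand at chr9:99612252-99612551 and has 1 match, on the opposite strand, beginning 162 bases before the start. Upstream of this match its window also holds TGATAG, a form not searched and left in lower case. St3gal4 lies on the minus strand at chr9:35116815-35117114 and has no match in this window.
A4gnt: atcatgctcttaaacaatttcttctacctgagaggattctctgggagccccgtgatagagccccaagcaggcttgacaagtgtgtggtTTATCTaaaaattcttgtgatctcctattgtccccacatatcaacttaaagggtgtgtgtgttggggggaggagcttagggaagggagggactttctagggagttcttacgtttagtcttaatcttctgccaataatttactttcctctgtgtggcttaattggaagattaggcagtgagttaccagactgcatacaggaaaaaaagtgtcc
St3gal4: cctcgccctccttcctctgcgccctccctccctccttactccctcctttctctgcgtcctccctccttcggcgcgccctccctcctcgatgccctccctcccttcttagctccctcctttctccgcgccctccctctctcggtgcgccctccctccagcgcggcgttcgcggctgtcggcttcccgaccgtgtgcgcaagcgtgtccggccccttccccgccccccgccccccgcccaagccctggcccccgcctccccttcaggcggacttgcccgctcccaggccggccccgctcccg

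Members of the Galnt family, the GalNAc transferases of O-linked chains, moved in both directions. Of 17 GalNAc transferases, 3 rose, 2 fell and 12 did not pass, so 29.4% passed, against 8.24% of all genes. The median log2 fold change over all 17 was 0.02. The 3 that rose were Galnt12, Galnt4 and Galnt7. Galnt12 had log2 signals of 7.19, 7.13 and 7.18 in KO-labelled arrays, against 6.11, 6.11 and 6.05 in controls. All 3 KO-labelled arrays were about equally high, and the log2 fold change was 1.08 (SE 0.07 and limma adjusted p = 5.91e-04). Galnt4 read 8.26, 8.33 and 8.34 in KO-labelled arrays and 7.33, 7.46 and 7.42 in controls. It was 1.87-fold higher (limma adjusted p = 0.00117), again with little scatter in either group. The Galnt4 gene lies inside the span of Poc1b, a centriole gene, in RefSeq. Poc1b, named after its value was seen, also rose, by a log2 fold change of 0.40 (limma adjusted p = 0.0382), and whether the 2 probe sets share signal was not tested. The Poc1b call held only without control replicate 1 (0.0357), and was lost when any of the other 5 arrays was left out (0.0732 to 0.132). Galnt7 showed 8.16, 8.27 and 8.31 in KO-labelled arrays, against 7.48, 7.86 and 7.67 in controls, where replicate 1 was lowest. Its log2 fold change was 0.57 (SE 0.11 and limma adjusted p = 0.0241), a call kept without control replicate 2 (0.0212) but lost without control replicates 1 (0.0523) or 3 (0.0869) or KO-labelled replicates 1 (0.0607), 2 (0.101) or 3 (0.0880).

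Galnt1 and Galnt6 were the GalNAc transferases that fell. Galnt1, a broadly expressed member, read 6.44, 6.20 and 6.22 in KO-labelled arrays and 6.77, 7.0 and 6.79 in controls, a log2 fold change of -0.57 (SE 0.10 and limma adjusted p = 0.0196). Its call was lost without KO-labelled replicates 2 (0.0890) or 3 (0.0766) or control replicate 3 (0.0610). Galnt6, which glycosylates fibronectin among other proteins, read 6.19, 6.36 and 6.50 in KO-labelled arrays, against 6.84, 6.76 and 6.68 in controls. It passed narrowly (log2 fold change -0.41, limma adjusted p = 0.0497) and lost the call without any 1 of the 6 arrays (0.0631 to 0.151). The 12 others had log2 fold changes from -0.29 for Galnt14 to 0.39 for Galnt5. Among them the broadly expressed Galnt2 had a log2 fold change of 0.06 and the epithelial Galnt3 of 0.26 (limma adjusted p = 0.169).

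Core synthesis and branching held the largest share of members that moved. Of 7 genes, 4 rose, 1 fell and 2 did not pass, so 71.4% passed, against 8.24% of all genes. The log2 fold change had a median of 0.36. B3gnt6, the enzyme that makes core 3, a structure typical of intestinal mucins, read 5.71, 6.20 and 6.24 in KO-labelled arrays and 4.14, 3.85 and 4.13 in controls. The lowest KO-labelled array, replicate 1, still lay above all controls, and the log2 fold change was 2.01 (SE 0.16 and limma adjusted p = 0.00107). C1galt1, which makes core 1, the alternative to core 3 on the same first sugar, read 7.77, 7.68 and 7.76 in KO-labelled arrays and 7.37, 7.42 and 7.34 in controls. Its rise was small, 1.28-fold (limma adjusted p = 0.0260), and when 1 array was left out it stayed called only without control replicate 2 (0.0435), with 0.0683 and 0.0877 without control replicates 1 and 3 and 0.0758, 0.0729 and 0.0939 without KO-labelled replicates 1, 2 and 3. The chaperone that C1galt1 needs, C1galt1c1, did not pass (log2 fold change 0.18, limma adjusted p = 0.177). The log2 fold change of B3gnt6 was thus the larger of the 2 core enzymes, with 95% intervals of 1.63 to 2.38 for B3gnt6 and 0.19 to 0.53 for C1galt1, which do not overlap; the difference itself was not tested.

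Branching enzymes of the Gcnt family went both ways. Gcnt3, the mucus-type enzyme that branches cores 1 and 3 and I-type chains, read 8.61, 8.91 and 8.90 in KO-labelled arrays and 8.23, 7.59 and 7.35 in controls. Control replicate 1 was the highest of its group, closest to the KO-labelled arrays. The log2 fold change was 1.08 (SE 0.22 and limma adjusted p = 0.0283) with all arrays and 1.33 without control replicate 1 (0.00663). Gcnt3 lost the call without control replicates 2 (0.0762) or 3 (0.0870) or KO-labelled replicates 1 (0.0707), 2 (0.119) or 3 (0.0973). Gcnt1, the leukocyte-type core 2 enzyme, read 4.42, 4.42 and 4.19 in KO-labelled arrays, against 3.58, 3.46 and 3.08 in controls, close to the array medians. It rose by 0.97 (SE 0.14 and limma adjusted p = 0.00899), a call lost without KO-labelled replicate 2 (0.0516). Gcnt4, another core 2 enzyme, was the member of this group that fell: 5.11, 4.91 and 5.14 in KO-labelled arrays, against 6.18, 6.63 and 6.50 in controls. The difference of -1.39 (SE 0.13 and limma adjusted p = 0.00165) was larger than the spread in either group. Gcnt2, which branches polylactosamine into I antigen, and Gcnt7 did not pass, with log2 fold changes of -0.12 and -0.07.

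**Figure D2:**
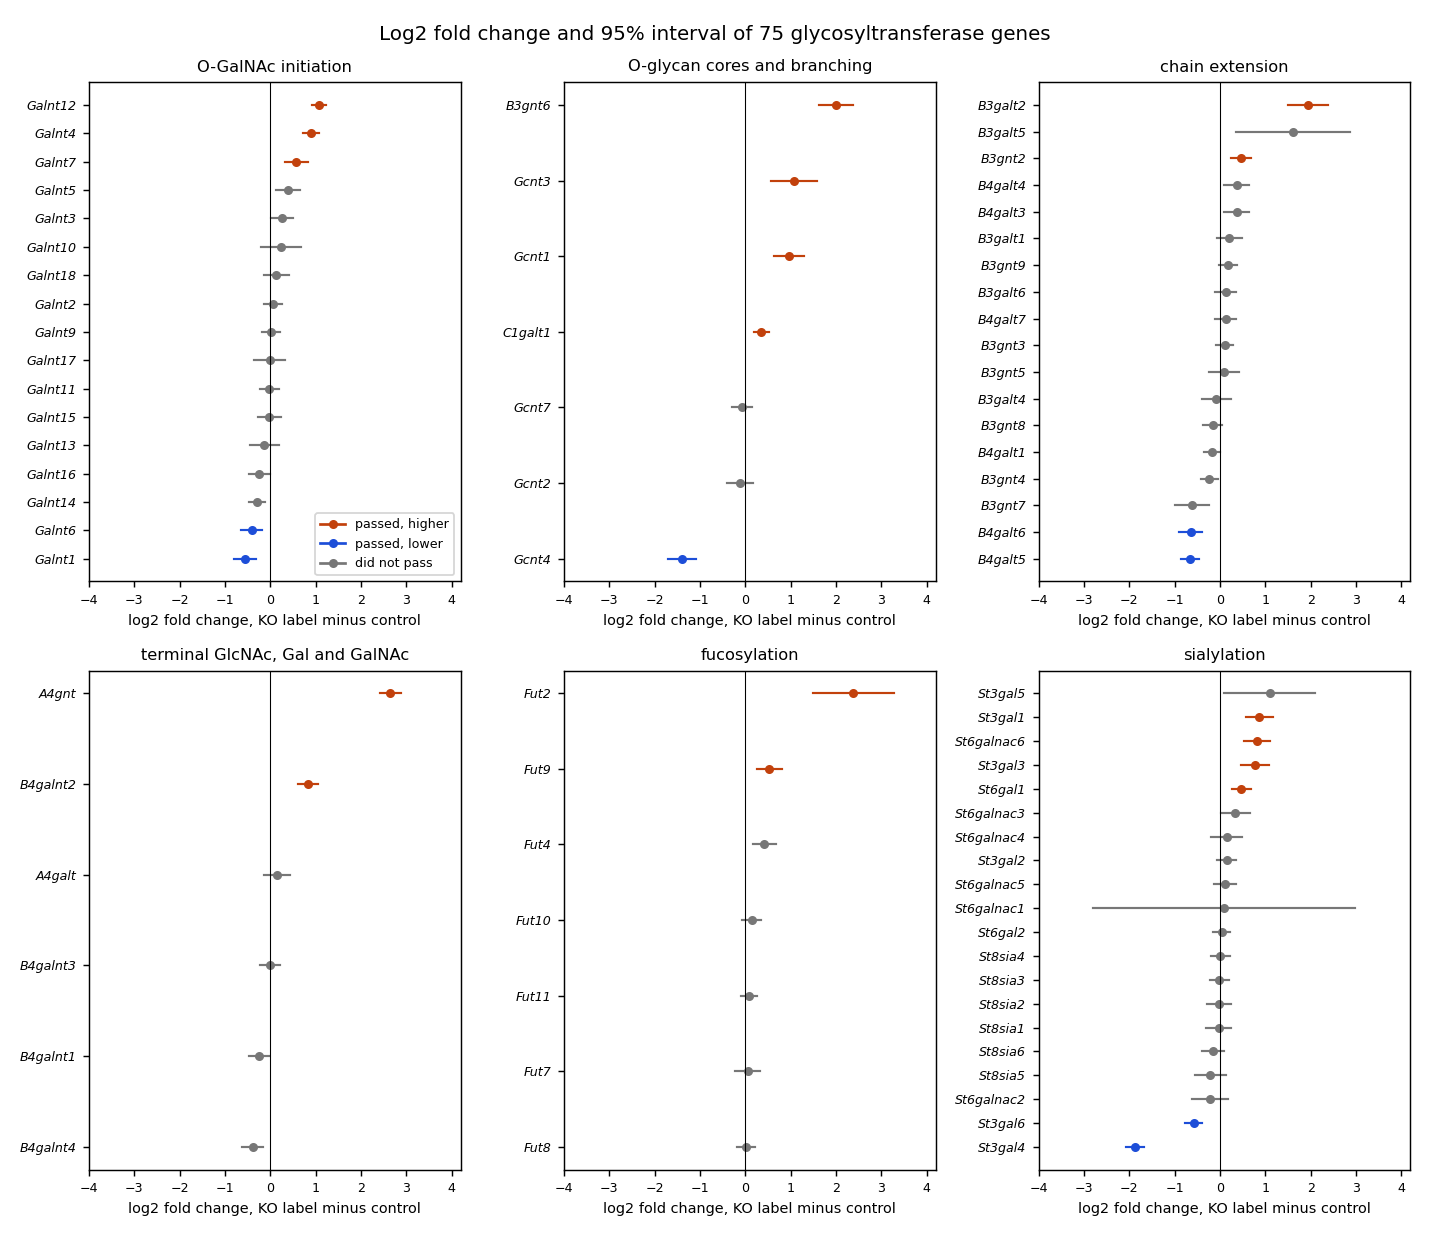
Log2 fold change, KO-labelled minus control (horizontal axes), of all 75 members with 95% intervals from limma, 3 arrays per group, in 6 panels by role. Orange marks genes that passed higher, blue genes that passed lower and grey genes that did not pass. Both directions appear among initiation, core, extension and sialylation enzymes, and the interval of St6galnac1, from -2.81 to 2.97, is the widest.

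Most chain extension enzymes did not pass. Of 18 genes, 2 rose, 2 fell and 14 did not pass, and the median log2 fold change was 0.11. The share that passed was 22.2%, against 8.24% of all genes. The groups did not overlap for 66.7% of the 18, against 29.3% of all genes. B3galt2, which adds galactose to make type 1 chains, read 4.47, 4.66 and 3.95 in KO-labelled arrays and 2.37, 2.27 and 2.62 in controls. Its control mean of 2.42 was under the array medians, which leaves the size of the change, 1.94 on the log2 scale (SE 0.19 and limma adjusted p = 0.00179), uncertain. B3gnt2, the main enzyme that lengthens polylactosamine, read 5.65, 5.80 and 5.61 in KO-labelled arrays and 5.29, 5.31 and 5.10 in controls. Its 1.37-fold rise (limma adjusted p = 0.0304) stayed called, with 1 array left out, only without control replicate 2 (0.0480), and had adjusted p of 0.0664 and 0.0930 without control replicates 1 and 3 and 0.0791, 0.114 and 0.0719 without KO-labelled replicates 1, 2 and 3.

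The enzymes that fell in this group, B4galt5 and B4galt6, are the pair that makes lactosylceramide, the stem of most glycolipids. B4galt5 read 5.75, 5.82 and 5.65 in KO-labelled arrays and 6.51, 6.34 and 6.35 in controls (log2 fold change -0.66, SE 0.09, limma adjusted p = 0.00584). B4galt6 read 5.06, 5.05 and 5.31 in KO-labelled arrays and 5.75, 5.93 and 5.69 in controls, a log2 difference of -0.65 (SE 0.11 and limma adjusted p = 0.0128). For both genes every KO-labelled array lay below every control. The B4galt6 call was lost without KO-labelled replicates 1 (0.0554) or 2 (0.0650). B4galt6 and Galnt1 lie on chromosome 18, which also holds Gata6. The other 2 members on it, St8sia3 and St8sia5, did not pass, at log2 fold changes of -0.01 and -0.21, with means below the array medians.

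B3galt5, which extends core 3 and makes type 1 chains in gut epithelium, read 6.33, 5.54 and 5.55 in KO-labelled arrays, against 5.12, 2.90 and 4.59 in controls. All KO-labelled arrays were above all controls, but the controls spanned 2.21 and the log2 fold change of 1.60 (95% interval 0.34 to 2.86) did not pass (limma adjusted p = 0.123). Without control replicate 1 it was 2.06 and without control replicate 2 it was 0.95, and neither passed (0.0876 and 0.106). B3gnt3, which extends core 1, read 8.56, 8.48 and 8.51 in KO-labelled arrays and 8.41, 8.52 and 8.31 in controls. Its groups overlapped (log2 fold change 0.10, 95% interval -0.09 to 0.29, limma adjusted p = 0.483). B4galt1, the most general galactosyltransferase of the family, had a log2 fold change of -0.17 (limma adjusted p = 0.200). B3gnt7, which extends keratan sulfate chains, had one of -0.62 with groups that did not overlap (limma adjusted p = 0.0643).

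Among the enzymes that place a terminal GlcNAc, galactose or GalNAc, 2 of 6 rose, none fell (2 were lower at an unadjusted p under 0.05) and 4 did not pass. The share that passed was 33.3%, against 8.24% of all genes. A4gnt caps mucin chains with GlcNAc and is known from the gland mucus of the stomach and of Brunner glands in the duodenum. It read 7.26, 7.56 and 7.46 in KO-labelled arrays and 4.84, 4.80 and 4.71 in controls. The log2 fold change of 2.64 (SE 0.10, 95% interval 2.42 to 2.87, limma adjusted p = 1.13e-04) had the smallest adjusted p of all members. Of the genes of gastric and Brunner gland mucus none of 9 passed, 1 had an unadjusted p under 0.05, and their mean log2 signal was 2.38 to 2.49 in KO-labelled arrays and 2.46 to 2.68 in controls. Muc6, the mucin that carries this cap in those glands, read 2.75, 2.87 and 2.62 in KO-labelled arrays and 2.77, 2.81 and 3.06 in controls, below the array medians throughout. B4galnt2, which makes the Sd(a) antigen on gut epithelium, read 10.37, 10.53 and 10.59 in KO-labelled arrays and 9.63, 9.78 and 9.56 in controls. It was 1.79-fold higher (log2 fold change 0.84, SE 0.09, limma adjusted p = 0.00345) and stayed called whichever of the 6 arrays was left out. The 4 that did not pass were A4galt at 0.15, B4galnt3 at -0.02, the ganglioside enzyme B4galnt1 at -0.25 and B4galnt4 at -0.39, all as log2 fold changes.

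Of 7 fucosylation genes 2 rose (28.6%, against 8.24% of all genes passing in either direction) and 5 did not pass, with Fut2 the most changed. Fut2, which adds the fucose of the H antigen on intestinal epithelium and mucin, read 8.73, 8.54 and 8.52 in KO-labelled arrays, against 7.12, 5.39 and 6.15 in controls. The KO-labelled arrays were tightly grouped and the controls wide, with replicate 1 highest. The log2 fold change was 2.38 (SE 0.38 and limma adjusted p = 0.0125) and was 2.83 without control replicate 1 (0.00425). It lost the call without control replicate 3 (0.0621) or KO-labelled replicates 1 (0.0607) or 2 (0.0610), with log2 fold changes of 2.31 to 2.41 in these 3 fits. Fut9, a Lewis x enzyme of the nervous system, passed (0.53, limma adjusted p = 0.0369) at signals of 1.94, 1.83 and 2.19 in KO-labelled arrays and 1.41, 1.35 and 1.59 in controls. These lie below the array medians, and the call was lost without any 1 array (0.0651 to 0.103). None of 10 enteric neuron and glia markers passed (2 had an unadjusted p under 0.05), with a mean log2 signal of 3.27 to 3.34 in KO-labelled arrays and 3.13 to 3.28 in controls. Fut8, which adds the core fucose of N-linked chains, had a log2 fold change of 0.02 (limma adjusted p = 0.922), and Fut4, a Lewis x enzyme of myeloid cells, of 0.42 (0.0557).

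Sialylation was split by enzyme. Of 20 sialyltransferase genes, 4 rose, 2 fell and 14 did not pass, so 30% passed, against 8.24% of all genes. The log2 fold change had a median of 0.06. St3gal4, which adds sialic acid to galactose of lactosamine ends, carried the largest decrease of all members. It read 8.15, 8.19 and 8.14 in KO-labelled arrays and 9.88, 10.14 and 10.09 in controls, a log2 difference of -1.88 (SE 0.09 and limma adjusted p = 1.83e-04). St3gal6, an enzyme of like preference, also fell: 4.89, 4.91 and 4.78 in KO-labelled arrays, against 5.48, 5.52 and 5.34 in controls (log2 fold change -0.59, SE 0.08, limma adjusted p = 0.00801). Both stayed called whichever array was left out.

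The sialyltransferases that rose were St3gal1, St6galnac6, St3gal3 and St6gal1. St3gal1, which sialylates core 1, read 6.57, 6.73 and 6.51 in KO-labelled arrays and 5.48, 5.87 and 5.85 in controls, 1.83-fold higher (limma adjusted p = 0.00855). A second, dimmer probe set of St3gal1, with a mean log2 signal of 3.79, had a log2 fold change of -0.08 and did not pass, so the 2 probe sets disagree. St6galnac6, which acts on glycolipids, read 8.77, 8.70 and 9.04 in KO-labelled arrays and 8.12, 7.85 and 8.09 in controls, 1.76-fold higher (limma adjusted p = 0.00954). St3gal3, which sialylates galactose, mainly of type 1 chains, read 5.47, 5.82 and 5.64 in KO-labelled arrays and 4.98, 4.65 and 5.02 in controls (log2 fold change 0.76, limma adjusted p = 0.0169), a call lost without KO-labelled replicates 2 (0.0712) or 3 (0.0640). St6gal1, which sialylates N-linked chains and is also abundant in B cells, read 5.60, 5.53 and 5.51 in KO-labelled arrays and 4.94, 5.14 and 5.14 in controls. Its 1.39-fold rise (limma adjusted p = 0.0196) was lost without control replicate 3 (0.0533) or KO-labelled replicates 1 (0.0683), 2 (0.0771) or 3 (0.0655). None of 8 B and plasma cell markers passed, and none had an unadjusted p under 0.05; their mean log2 signal was 4.0 to 4.25 in KO-labelled arrays and 4.21 to 4.32 in controls.

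St6galnac1, which makes sialyl-Tn on goblet cell mucin, had the second widest control group of all 19938 genes (SD 2.86). It read 4.24, 4.55 and 4.57 in KO-labelled arrays, against 1.15, 5.39 and 6.59 in controls 1, 2 and 3. Control replicate 1 lay below the array medians and the other controls above every KO-labelled array. With all arrays the log2 fold change was 0.08 (SE 1.23 and limma adjusted p = 0.979), and without control replicate 1 it was -1.53 (SE 0.34), which did not pass either (0.0660). Fut2, Gcnt3 and B3galt5 were all highest in control replicate 1 among controls, as were Car1 and Cyp2c55 (9.62, 9.88 and 10.20 in KO-labelled arrays, against 7.38, 5.08 and 4.55 in controls). Of 7 large intestine markers 1 rose (14.3%, against 4.99% of all genes), and their mean log2 signal was 4.93 to 5.20 in KO-labelled arrays and 4.55, 3.37 and 3.64 in controls 1, 2 and 3. Car1 and Cyp2c55 carried that difference: Hoxb13, Hoxd10, Hoxd11, Hoxd12 and Hoxd13 had log2 fold changes of -0.28, 0.38, 0.03, -0.06 and -0.00, and none of the 5 passed (Hoxb13 had an unadjusted p under 0.05). The part of these genes' source in the members' values was not tested. St3gal5, the GM3 synthase, was instead wide in the KO-labelled arrays, at 3.70, 5.48 and 4.27, against 3.84, 3.10 and 3.23 in controls, and the groups overlapped (log2 fold change 1.09, limma adjusted p = 0.178). The 6 St8sia genes had log2 fold changes from -0.21 to 0.00, and none passed or had an unadjusted p under 0.05.

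**Figure D3:**
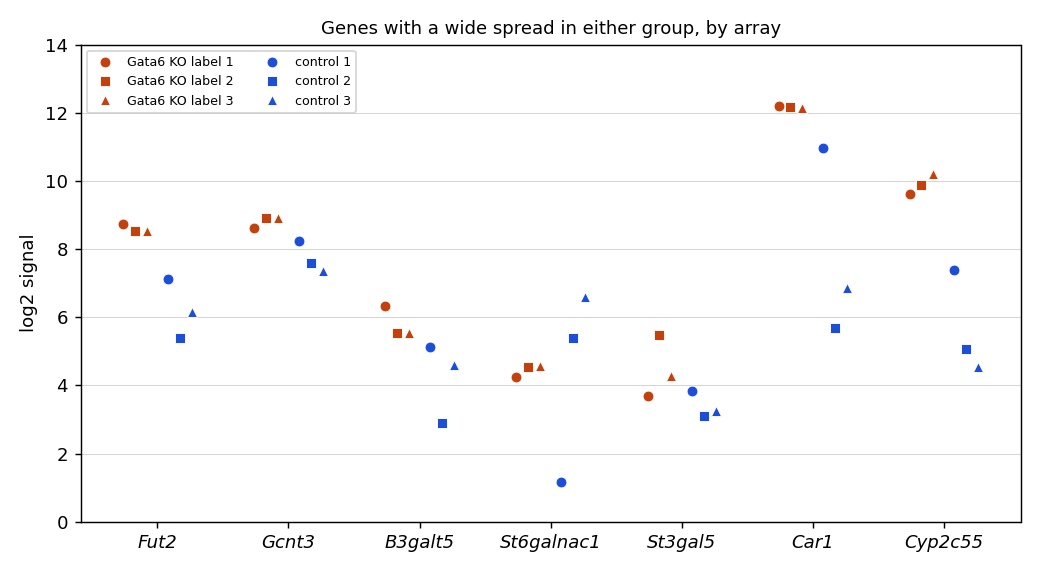
Log2 signal (vertical axis) per array of 5 members with a wide spread in either group and of Car1 and Cyp2c55, with KO-labelled arrays in orange left of controls in blue and a symbol per replicate number. Control replicate 1, the blue circle, is the highest control for Fut2, Gcnt3, B3galt5, St3gal5, Car1 and Cyp2c55 and by far the lowest array for St6galnac1, at 1.15.

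Genes that supply the activated sugars were examined as a list. Of 24 measured genes of nucleotide sugar synthesis, 7 rose, 2 fell and 15 did not pass, so 37.5% passed, against 8.24% of all genes. The median was 0.15 on the log2 scale. Gne, the first and rate-limiting enzyme of sialic acid synthesis, read 8.19, 8.38 and 8.42 in KO-labelled arrays and 6.96, 7.08 and 6.96 in controls, 2.52-fold higher (limma adjusted p = 6.41e-04). Cmas, which activates sialic acid with CMP and was named after its values were seen, read 8.78, 8.80 and 8.79 in KO-labelled arrays and 8.45, 8.23 and 8.27 in controls (log2 fold change 0.47, limma adjusted p = 0.0178). Its call was lost without KO-labelled replicates 1 (0.0579), 2 (0.0792) or 3 (0.0685) or control replicate 3 (0.0709). Nans and Nanp, which act between them and were also named after their values were seen, did not pass. Their log2 fold changes were 0.31 (0.0577) and 0.08 (0.613), and the groups overlapped for Nanp. Slc35a1, which carries CMP-sialic acid into the Golgi, had the largest change among the 11 Golgi nucleotide sugar transporters: 7.39, 7.28 and 7.36 in KO-labelled arrays, against 5.92, 5.84 and 5.58 in controls. It was 2.96-fold higher (log2 fold change 1.56, SE 0.10, limma adjusted p = 6.31e-04). Gne and Slc35a1 stayed called whichever array was left out, and with the smooth muscle covariate (0.0329 and 0.0368).

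UDP-GlcNAc is the donor for B3gnt and Gcnt enzymes and for A4gnt, and the listed genes of its synthesis gave mixed results. Uap1, its last enzyme, read 7.85, 8.01 and 7.95 in KO-labelled arrays and 7.13, 7.17 and 6.92 in controls (log2 fold change 0.86, limma adjusted p = 0.00289). Gfpt1 and Gnpnat1, earlier enzymes named after their values were seen, rose by 0.48 and 0.44 (0.00921 and 0.0179), and Gnpnat1 lost the call without KO-labelled replicates 2 (0.0610) or 3 (0.0690) or control replicate 3 (0.0696). Pgm3, Gfpt2 and Nagk, of the same route and likewise named after their values were seen, had log2 fold changes of 0.28, 0.70 and 0.15 and did not pass (0.0539, 0.18 and 0.234). Ugp2, which makes UDP-glucose, rose by 0.51 (0.00878), and Pmm1, a phosphomannomutase named after its value was seen, by 0.69 (0.0101). Uap1l1, a relative of Uap1, fell by 0.51 on the log2 scale (0.00666). Gmppb, which makes GDP-mannose and was named after its value was seen, fell by 0.56 (0.0317), a call kept without control replicate 2 (0.0303) but lost without any of the other 5 arrays (0.0515 to 0.117). On the transporter list 2 of 11 rose and 1 fell (27.3%, against 8.24% of all genes), or 1 and 0 without any 1 of the 6 arrays other than control replicate 2. The others called were Slc35b4 with 0.39 (0.0252, and 0.0585 to 0.101 without any 1 array other than control replicate 2) and Slc35c2 with -0.32 (0.0484, and 0.0626 to 0.160 without any 1 array).

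**Figure D4:**
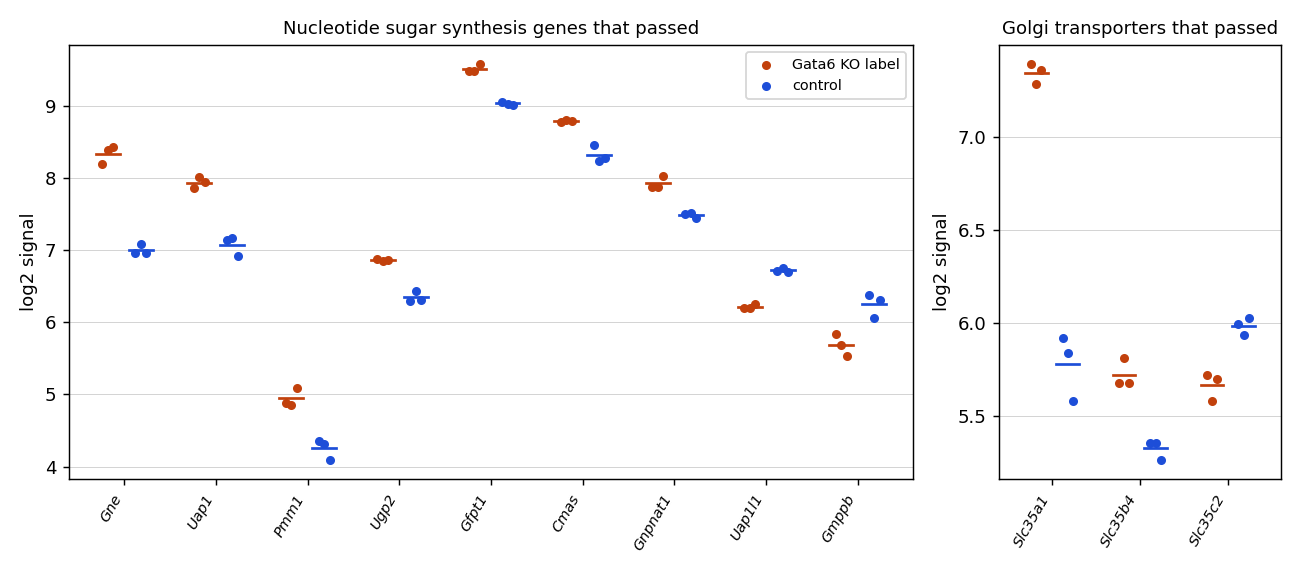
Log2 signal (vertical axes) of the 9 nucleotide sugar synthesis genes (left) and 3 Golgi nucleotide sugar transporters (right) that passed, with 1 point per array, KO-labelled arrays left of controls and a line at each group mean. Gne and Slc35a1 are the genes with the widest gap between groups, and Uap1l1, Gmppb and Slc35c2 are lower in KO-labelled arrays.

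Of 27 genes of other glycosyltransferases and of the C1galt1 chaperone, 2 rose and 1 fell, 11.1% in all, near the background of 8.24%. Mgat4b and Mgat4c, N-glycan branching enzymes, rose by 0.50 and 0.53 (limma adjusted p = 0.0100 and 0.0134), and Rfng, a fringe enzyme that modifies Notch, fell by 0.45 (0.0212). Mgat4b lost its call without KO-labelled replicate 2 (0.0520), Mgat4c without KO-labelled replicates 1 to 3 or control replicate 3 (0.0526 to 0.0610), and Rfng in every such fit but that without control replicate 2 (0.0550 to 0.0844). Of 16 sulfation genes 1 passed, 6.25%, near the background of 8.24%. Papss2, which makes the sulfate donor, rose (log2 fold change 1.28, limma adjusted p = 0.0190), a call lost without KO-labelled replicates 2 (0.0704) or 3 (0.0719) or control replicate 3 (0.0649). Of 11 genes of glycan removal or acetylation 2 passed, 18.2%, against 8.24% of all genes. The sialic acid O-acetyltransferase Casd1 rose by 0.77 (0.00373) and the lysosomal fucosidase Fuca1 by 0.45 (0.0185). The Fuca1 call was lost without control replicate 1 (0.0564) or KO-labelled replicates 1 (0.0635) or 2 (0.0834).

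Most mucin genes did not pass, but 8 of the 14 had neither group mean above all array medians, where a change may not be detectable. Of 14, 2 rose, 14.3%, against 8.24% of all genes passing in either direction. They were Muc2, the secreted mucin of goblet cells, at 10.77, 11.06 and 11.34 in KO-labelled arrays and 10.24, 10.19 and 10.41 in controls (limma adjusted p = 0.0225), and the membrane mucin Muc4, which was 2.53-fold higher (0.00527). Muc2 kept the call only without KO-labelled replicate 1 (0.0195), and otherwise had 0.0557 to 0.0952. The membrane mucins Muc13 and Muc3, named after their values were seen, had log2 fold changes of 0.13 and 0.04 and did not pass. Markers of goblet cells, which make the secreted mucin, went both ways. Of 13, 6 rose (46.2%, against 4.99% of all genes) and Zg16 fell by 1.44 on the log2 scale (0.0211). Clca1 and Tff3, named after their values were seen, had log2 fold changes of -0.40 and -0.18 and did not pass. The mean log2 signal of the 13 was 7.74 to 8.01 in KO-labelled arrays and 7.55 to 7.72 in controls, while the log2 of their summed signal overlapped, at 12.79 to 13.19 in KO-labelled arrays and 12.95 to 13.16 in controls. Paneth cell markers fell, with 6 of 6 lower (100%, against 3.25% of all genes) and means of 5.82 to 6.76 in KO-labelled arrays and 8.33 to 8.69 in controls. Of 11 enterocyte markers 8 were lower (72.7%, against 3.25% of all genes), with means of 5.62 to 6.27 in KO-labelled arrays and 7.37 to 7.93 in controls. None of 7 T cell markers passed (1 at an unadjusted p under 0.05). The part of these cell types in the glycosyltransferase values was not tested.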

How the data were processed

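The authors deposited log2 signals of whole probe sets, with each mouse in its own column. The submitters' processing notes name Affymetrix Expression Console; its version, background correction, normalization and summary method are not stated, and a log base of 2 was read from the range of the values. Of 35557 probe sets, 21789 had 1 gene symbol in GEO's platform table and were used; the brightest by mean over the 6 arrays stood for each of 19938 genes, with no scaling and no filter. The 75 members had 77 probe sets, and gene identifiers of all 75 matched the RefSeq table of GRCm38.p6 without a change of symbol.

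Genes were fitted with limma 3.58.1 in R 4.3.3 (lmFit and eBayes, KO-labelled minus control, two-sided) with Benjamini-Hochberg adjustment over all genes, a threshold of 0.05, moderated SE and 95% intervals. The fit was tested on simulated arrays. Signals of different probe sets are not comparable between genes, and the number of arrays limits the precision.

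The members and gene lists were chosen with earlier results of these data known. Values per array are given for members that passed, for others that differed by at least 1 on the log2 scale, for the brightest of each role and for some enzymes named in the rule; on other lists up to 4 genes that passed are named. Figures were drawn with matplotlib 3.10.9.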

Additional observations from a re-analysis of the deposited data

How the results depend on the processing

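All 24 called members kept their direction in each of the 17 alternatives in which they were tested. Of these members 3 (B3galt2, Gcnt1 and Fut9) were not tested under the filter on dim genes. Most of the 17 alternatives could not have turned a direction. The filter, testing every probe set, no moderation, the intensity trend and the replicate block leave the fold change as it was. Leaving out or weighting arrays cannot turn it where groups do not overlap, as for all 24. Averaging changed only genes with several probe sets. The counts of 17 higher and 7 lower were 16 to 18 and 6 to 8 with arrays centred on their median, quantile normalization, the filter on dim genes, averaged probe sets, an intensity trend or array weights. In these fits 32% to 51.1% of members and 8.15% to 20.1% of all genes tested passed, both shares highest with the filter. Testing every probe set left 10 higher and 5 lower, 20% of members, against 3.60% of all genes. Without moderation 5 were higher and 1 lower, 8% of members, against 1.37% of all genes. With the smooth muscle covariate 2 were higher and 1 lower, 4% against 0.53%. Leaving out control replicates 1 and 3 together keeps 1 control, so only effect sizes are given for that fit. Leaving out 1 array gave 8 to 16 higher and 4 to 7 lower, and 12 of the 24 members kept the call in all 6 such fits. In these 6 fits 16% to 30.7% of members and 2.99% to 7.04% of all genes passed. Gata6 had log2 fold changes of 0.46 to 0.55 without 1 array and 0.54 with control replicates 1 and 3 left out. It did not pass without moderation (0.49, adjusted p = 0.0695 from an ordinary t-test) or with the smooth muscle covariate (0.59, limma adjusted p = 0.176). The direction of St6galnac1 turned: it ranged from -1.53 (without control replicate 1) to 1.18 without 1 array, and was -0.93 with control replicates 1 and 3 left out and -0.91 with the smooth muscle covariate. Apart from the fits that leave out arrays, the cause of these changes was not tested. With the replicate number as a block, 15 members were higher and 7 lower, 29.3% of members, against 6.22% of all genes. Deviations of same-numbered arrays from their group means correlated at 0.04, -0.04 and 0.15. Of 6 arrays 2 matched their own number best, those of replicate 3. Pairing by number was thus not shown, and with 3 arrays per group this check cannot exclude it. The 19 members with neither group mean above all array medians are not shown to lie above background, and a change in them may not be detectable here.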
